A study of Mus musculus with 2 samples.

Results

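Open chromatin inside introns and away from promoters was examined in LβT2 cells through 3609 reproducible intronic peaks. A peak was included when its summit lay on chromosomes 1 to 19, within 200 bp of a summit in the other replicate, more than 5 kb from every annotated transcription start site (TSS), inside a protein-coding transcript and outside every exon. The peaks were thus selected on measured values, namely on being called in both replicates, and that agreement is not a result. Replicate 1 had 58519 peaks in all and replicate 2 had 64984. On chromosomes 1 to 19, 22917 peaks of replicate 1 had a partner within 200 bp in replicate 2, and the intronic peaks were 15.7% of them. The other reproducible peaks were 9100 intergenic peaks, 6121 promoter peaks within 1 kb of a TSS and 4087 peaks in other places. Positions are those of replicate 1, in GRCm38.

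LβT2 is a gonadotrope line derived from a pituitary tumor of a transgenic mouse. Both ATAC-seq replicates had the same treatment, 4 pulses of 2 nM gonadotropin-releasing hormone (GnRH), 2 h apart, and were harvested 45 min after the last pulse, at passage 21. There was 1 condition and no untreated sample among the files, so nothing below is a response to GnRH. The study speaks of independent samples and libraries, and the labels do not say whether these were separate cultures, so the spread between them may be technical in part. Gonadotrope genes bear out the label in part: Lhb, Cga and Gnrhr had a peak within 1 kb of a TSS in both replicates. Egr1, an early gene induced by GnRH and not a marker of the cell type, had one too. The nearest summit to Nr5a1 lay 1113 bp from its TSS in replicate 1 and 270 bp in replicate 2. Fshb, Lhx3, Pitx1 and Chga had no such peak in either replicate. Neither did the 7 genes checked for other pituitary lineages, namely Pou1f1, Tshb, Prl, Gh, Ghrhr, Pomc and Tbx19.

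ATAC-seq finds DNA that a transposase can reach, which in most cells means promoters, enhancers and insulator sites freed of nucleosomes. Many enhancers lie in introns, of the gene they act on or of a neighbor, and are bound by factors that mark a cell type. In gonadotropes these include steroidogenic factor 1 (SF1, the product of Nr5a1), the PITX and LHX homeodomain proteins and, after GnRH, AP-1 and EGR1. Introns are also rich in transposed repeats, and a short read from a repeat may come from any of its copies.

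Among the gonadotrope genes looked up, Nr5a1, Cga and Gnrhr held 1 intronic peak each. Lhb, Fshb, Pitx1, Lhx3 and Egr1 have no intron sequence more than 5 kb from a TSS, so they could hold none. The 200 bp centered on each summit are given here on the plus strand of GRCm38, with matches to the motifs searched in capitals. The Nr5a1 window has 1 PITX match (TAATCC). The Gnrhr window has an AP-1 match, a PITX match and 2 GATA matches, and the Cga window has none of the 19 motifs.
Nr5a1, chr2:38695802-38696001: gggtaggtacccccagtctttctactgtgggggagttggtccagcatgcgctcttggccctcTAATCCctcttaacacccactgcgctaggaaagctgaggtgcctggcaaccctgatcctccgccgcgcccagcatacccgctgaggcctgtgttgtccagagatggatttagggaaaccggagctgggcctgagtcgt
Gnrhr, chr5:86192015-86192214: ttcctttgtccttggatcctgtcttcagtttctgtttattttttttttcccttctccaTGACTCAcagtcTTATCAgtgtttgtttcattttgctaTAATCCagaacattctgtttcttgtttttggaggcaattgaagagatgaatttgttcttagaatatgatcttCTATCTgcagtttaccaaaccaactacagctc
Cga, chr4:34900271-34900470: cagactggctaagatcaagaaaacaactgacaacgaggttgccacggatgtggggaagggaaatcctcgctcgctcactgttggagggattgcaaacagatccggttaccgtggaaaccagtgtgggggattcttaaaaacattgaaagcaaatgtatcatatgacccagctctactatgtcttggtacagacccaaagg

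The Nr5a1 peak, chr2:38695817-38696164, lay in intron 6, 15.3 kb from the nearest TSS. Its summit held 20 tags in replicate 1 (exact Poisson 95% interval 12.2 to 30.9) and 40 in replicate 2 (28.6 to 54.5), and −log10 q was 7.74 and 25.1. Enhancers of Nr5a1 that work in the pituitary and the hypothalamus are known from the sixth intron of the mouse gene; whether this peak lies in one of them was not tested. Cga encodes the α subunit shared by LH, FSH and TSH, and its peak, chr4:34900119-34900459, lay in intron 1, 6.58 kb from the TSS, with 20 and 32 tags and a −log10 q of 7.74 and 17.1. Gnrhr encodes the GnRH receptor, and its peak, chr5:86191992-86192426, lay in intron 1, 5.73 kb from the TSS, with 16 and 36 tags and a −log10 q of 4.80 and 21.0. All 3 summits were single-copy, as defined below, in both replicates. In none of the 3 did the tags differ between replicates after scaling (exact binomial test, adjusted p = 1 for each). RefSeq curated transcripts place all 3 in the same genes.

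Most intronic peaks rested on few tags. A tag is a read extended over the summit, and the number of tags follows from a peak's deposited fold and p; −log10 q is the deposited strength of a peak against the background of its library. The background is the 1 value for each library that fits the deposited fold and p, and is not a local measure. It was 3.05 tags in replicate 1 and 3.54 in replicate 2, and the weakest listed peak held 10 and 11 tags. At the intronic summits the median was 16 and 19 tags, with 25% of them above 20 and 25 tags. Median −log10 q was 4.80 and 6.21, with a mean of 5.50 ± 0.998 (SD, n = 2), and the median fold over background was 4.20 and 4.41. The median for all reproducible peaks was 5.50 and 7.67. A −log10 q of at least 10 in both replicates was reached by 438 intronic peaks, or 12.1%, where the share over all reproducible peaks was 17.3%. Among promoter peaks it was 33.8%, and among intergenic peaks 10.4%. The median distance between paired summits was 59 bp. Over the 3609 peaks, −log10 q of the 2 replicates had a Spearman rho of 0.574, a description across peaks that share both libraries.

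**Figure D1:**
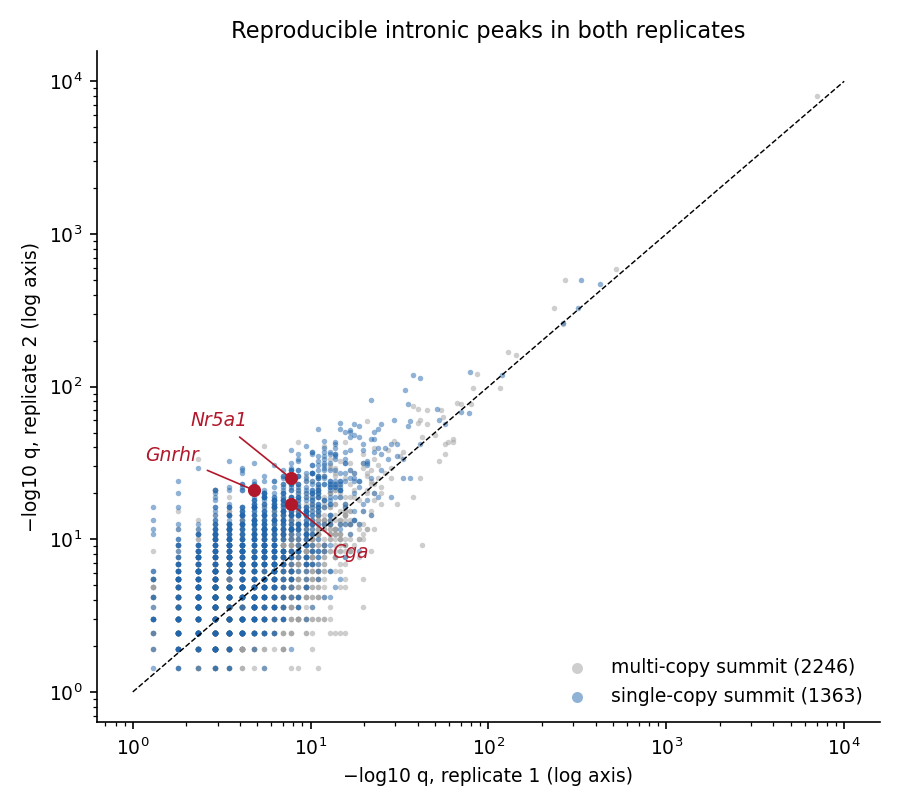
Each point is 1 of the 3609 reproducible intronic peaks, with −log10 q in replicate 1 on the x axis and in replicate 2 on the y axis, both on log axes; blue points have a single-copy summit, gray points a multi-copy one, and the dashed line marks equal values. The peaks in Nr5a1, Cga and Gnrhr (red) lie above the line, as does the bulk of the single-copy peaks, while the point at the upper right, near 7013 and 8011, is the peak in Chl1.

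Few intronic peaks were called as different between the replicates, and which ones were depended on the scaling. Peaks strong in 1 replicate alone had been left out by the rule, and with so few tags only large differences could be called. The low count is thus no measure of agreement. Over all reproducible peaks the tags of replicate 2 were 1.31 times those of replicate 1, and each peak was tested against that ratio with an exact binomial test, adjusted by Benjamini-Hochberg over the 22917 peaks. After adjustment, 2 intronic peaks had relatively more tags in replicate 1 and 0 in replicate 2, while over all reproducible peaks 0.096% were called in the first direction and 0.105% in the second. At an unadjusted p under 0.05 (exact binomial test) there were 81 and 57, together 3.82% of the intronic peaks, against 5.13% of all reproducible peaks. The called peaks lay in Chl1, which encodes a neural adhesion molecule, with 2777 and 3179 tags (exact binomial test, adjusted p = 0.000274), and in Acsl6, a fatty acid activating enzyme, with 53 and 23 tags (exact binomial test, adjusted p = 0.00481). Both summits were multi-copy. The Chl1 summits of the replicates lay at the same base. Those of Acsl6 lay 196 bp apart, so its 53 and 23 tags were counted at different bases. With the ratio of the backgrounds, 1.16, as the expected ratio instead, the Chl1 call ended (exact binomial test, adjusted p = 1) and the balance of directions turned. Then 1 intronic peak, that in Acsl6 (exact binomial test, adjusted p = 0.0152), had relatively more tags in replicate 1 and 7 had more in replicate 2, against 0.0175% and 0.655% of all reproducible peaks. The test compares these 2 libraries and covers counting error only.

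The sequence at the summit was single-copy in a minority of intronic peaks. For each summit, the places in the genome that hold its central 50 bp on either strand were counted. Only exact matches in the assembly count, so near copies and copies absent from the assembly are missed. At 1363 summits, or 37.8%, there was 1 such place, and at the other 2246 there were more. Positions laid every 10 kb along the same kind of intron, 61722 in all, were single-copy in 92.9%. The share was 44.8% over all reproducible peaks, 23.7% over intergenic peaks and 87.5% over promoter peaks. The multi-copy peaks spread over all classes, with 647 at 2 to 9 places, 488 at 10 to 99, 478 at 100 to under 1000 and 633 at 1000 or more. In 54.1% of intronic peaks the whole 200 bp window was marked as repeat in the genome sequence, against 6.71% of the intron positions. Only 166 peaks shared their 50 bp with another intronic peak, and at most 5 shared the same 50 bp.

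The 50 bp are shown for the summit with the most copies, which holds 19380, and for the strongest intronic peak, with 2 exact copies in the assembly. They lie in introns of Klra2 and of Chl1.
Klra2, chr6:131240638-131240687: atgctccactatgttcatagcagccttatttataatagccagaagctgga
Chl1, chr6:103649174-103649223: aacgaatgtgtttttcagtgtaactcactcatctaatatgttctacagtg
The Klra2 peak held 12 tags in replicate 1, near the lowest listed value of 10, and 20 in replicate 2, and its summit in replicate 2, 80 bp away, had 14 copies. The Chl1 peak, 257 bp wide in replicate 1 and 259 bp in replicate 2, had its summit at the same base in both. Its 2 copies are a lower bound, since near and unassembled copies were not counted. The part of such copies in its tags was not tested. The longer the window, the more peaks were single-copy, with 53.3% at 100 bp and 70.7% at 200 bp.

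**Figure D2:**
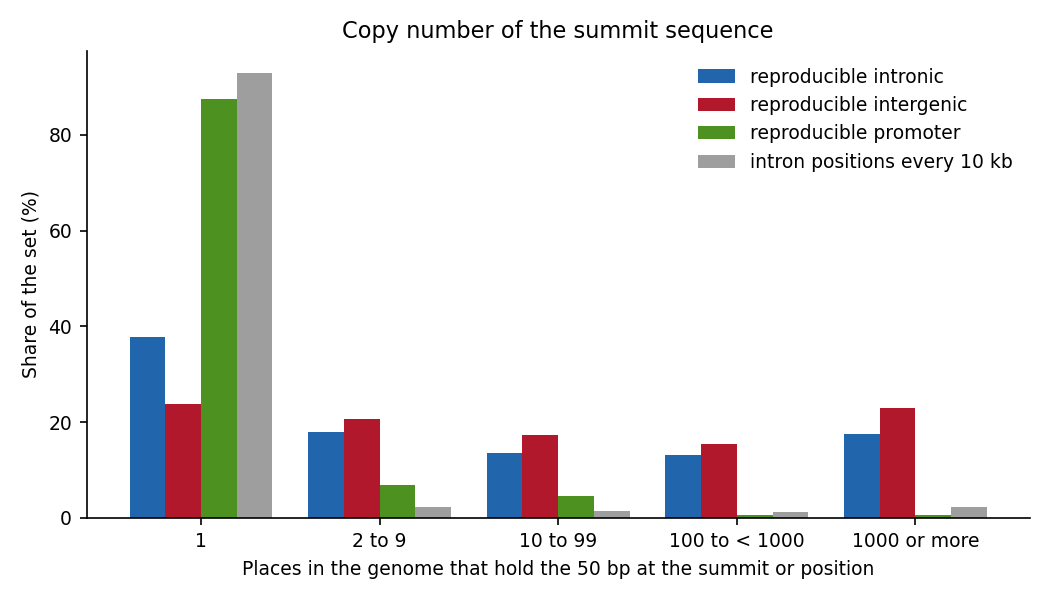
Bars give the share of each set, in percent, by the number of places in the genome that hold the 50 bp at the summit (reproducible peaks) or at the position (intron positions every 10 kb). Single-copy sequence makes up 37.8% of the intronic peaks, 23.7% of the intergenic peaks, 87.5% of the promoter peaks and 92.9% of the intron positions.

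Single-copy and multi-copy peaks were alike in replicate 1 and not in replicate 2. Median −log10 q was 4.80 in replicate 1 for both classes, and in replicate 2 it was 8.44 for single-copy and 5.51 for multi-copy peaks. The median tags were 16 and 22 for single-copy peaks and 16 and 18 for multi-copy peaks. In replicate 2, 45.3% of the single-copy and 21.0% of the multi-copy peaks reached a −log10 q of 10, and in replicate 1 it was 16.7% and 15.4%. The Spearman rho between replicates was 0.632 over single-copy and 0.565 over multi-copy peaks. These values were part of the choice of the peaks and carry no test.

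Intronic peaks were spread along introns much like the intron sequence itself. Sequence that meets the rule made up 617 Mb, or 25.8% of chromosomes 1 to 19, and held 5.85 intronic peaks per Mb, of which 2.21 were single-copy. The median distance to the nearest TSS was 19648 bp, and 20264 bp for the intron positions. The first intron held 26.5% of the peaks, 29.4% of the single-copy peaks and 24.1% of the intron positions. Single-copy peaks numbered 2.40 per Mb at 5 to 10 kb from a TSS, 2.49 at 10 to 20 kb, 2.05 at 20 to 50 kb, 2.12 at 50 to 100 kb and 1.45 beyond 100 kb. Multi-copy peaks numbered 3.32 per Mb in the nearest class and 4.01 in the farthest, the opposite order.

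Genes with an open promoter held more single-copy intronic peaks per length. Of the 12425 protein-coding genes with such intron sequence, 3785 had a reproducible peak within 1 kb of a TSS. Their introns held 3.08 single-copy peaks per Mb, and those of the other 8640 genes held 1.88. The first value was the higher on 17 of 19 chromosomes. It was also the higher in 3 of 4 equal classes of genes by length of such sequence, at 3.20 against 1.84 in the class of the longest. In the class of the shortest, where 3 and 12 genes held a single-copy peak, the values were 1.96 and 2.71. For multi-copy peaks the values were 4.12 and 3.47 per Mb, and the first was the higher on 11 of 19 chromosomes. Without chromosome 14 the single-copy values were 2.75 and 1.71.

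**Figure D3:**
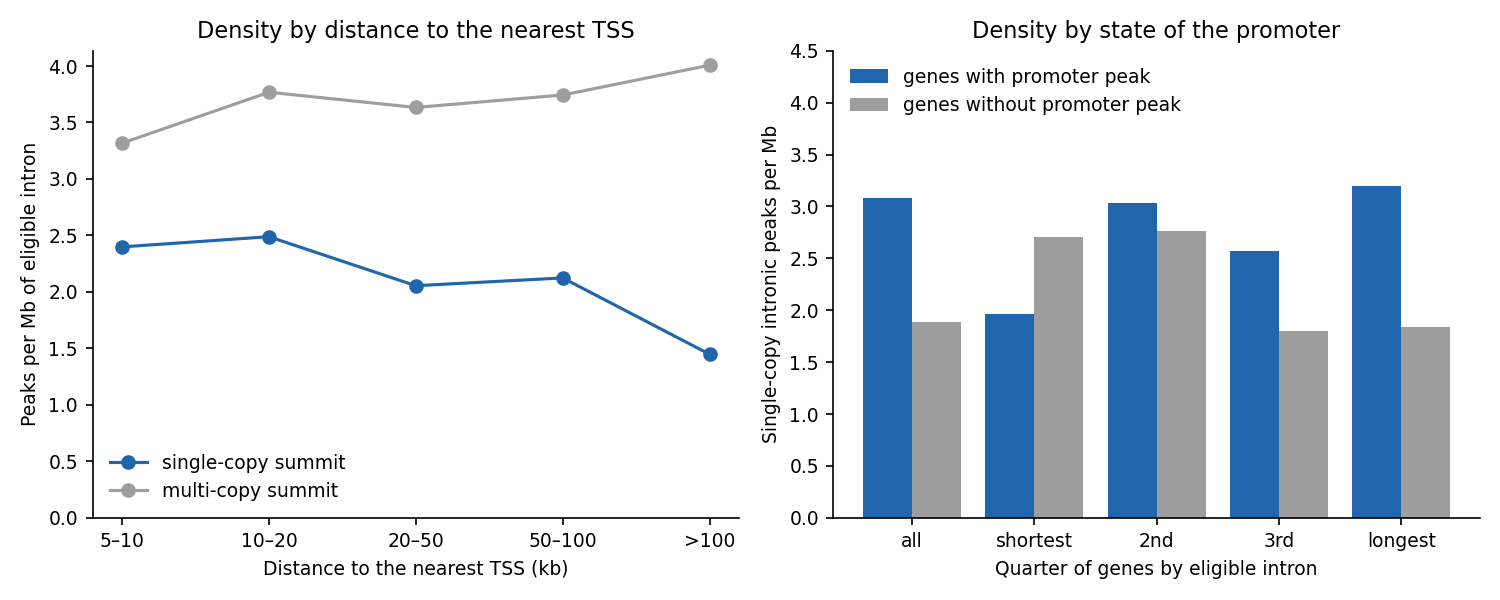
Left, peaks per Mb of eligible intron (y) by distance to the nearest TSS in kb (x), for single-copy (blue) and multi-copy (gray) summits, which go from 2.40 to 1.45 and from 3.32 to 4.01. Right, single-copy intronic peaks per Mb (y) in genes with (blue) and without (gray) a reproducible promoter peak, for all genes, 3.08 and 1.88, and in 4 classes by eligible intron length, where the class of the shortest has the reverse order.

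Chromosome 14 stood apart. It held 509 intronic peaks, or 14.1% of all, in 5.13% of the eligible intron, which is 16.1 per Mb, and 6.50 single-copy peaks per Mb. The next highest single-copy densities were 3.40 on chromosome 17 and 3.38 on chromosome 18. Chromosomes 3, 8, 10, 12 and 13 had fewer than 1 single-copy peak per Mb, from 0.486 on chromosome 12 to 0.928 on chromosome 8. The share of coding genes with a promoter peak followed a like order, from 14.5% on chromosome 10 to 40.6% on chromosome 14. Over the 19 chromosomes, it had a Spearman rho of 0.821 and a Pearson r of 0.829 with the single-copy density, and of 0.789 and 0.864 without chromosome 14, given as a description since all chromosomes share the same 2 libraries. Without chromosome 14, 3100 intronic peaks were left, 37.3% of them single-copy, and their median −log10 q was again 4.80 and 6.21.

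The first 20 Mb of chromosome 14 held a pair of dense neighboring stretches of different kinds. From 0 to 10 Mb there were 157 intronic peaks, 139 of them multi-copy, in 1.67 Mb of eligible intron. From 10 to 20 Mb there were 108, 81 of them single-copy, in 4.00 Mb of eligible intron, which is 20.3 single-copy peaks per Mb. Among 325 stretches of 5 Mb with at least 1 Mb of eligible intron, the highest and second highest single-copy densities were those from 15 to 20 Mb and from 10 to 15 Mb of this chromosome, at 22.0 and 19.5 per Mb, and the median was 1.66. The single-copy peaks from 10 to 20 Mb were weak, with a median −log10 q of 3.49 and 4.19. Beyond 20 Mb the chromosome held 244 intronic peaks, 107 of them single-copy, or 9.38 and 4.11 per Mb, still above the 7.78 and 3.40 of chromosome 17.

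**Figure D4:**
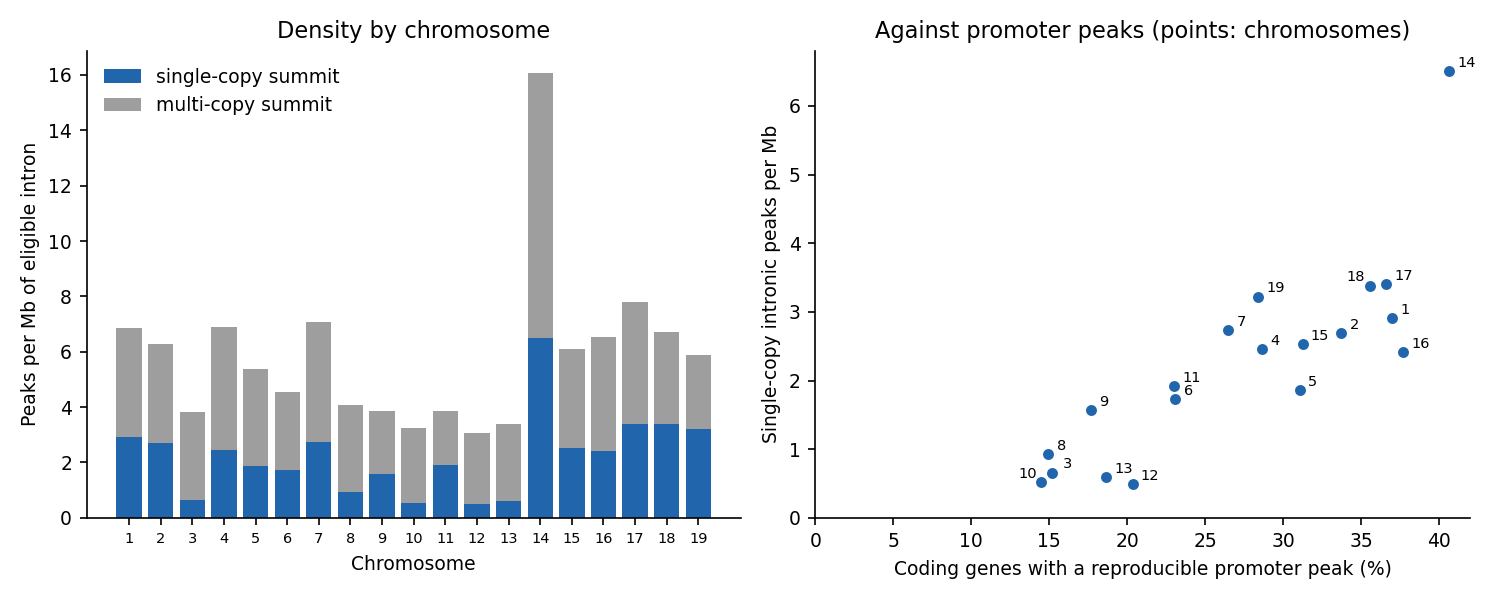
Left, intronic peaks per Mb of eligible intron (y) by chromosome (x), single-copy in blue and multi-copy in gray, with chromosome 14 at 16.1 in all. Right, each point is a chromosome, with the percent of coding genes that have a reproducible promoter peak (x) and the single-copy intronic peaks per Mb (y), where chromosome 14 is at 40.6% and 6.50 and 5 chromosomes are below 1 per Mb.

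Of the 10 genes with the most intronic peaks, 7 lay on chromosome 14. Ptprg, which encodes a receptor tyrosine phosphatase, held 37, of which 34 were single-copy, and Fhit, which spans a common fragile site, held 25, of which 16 were single-copy. Thrb, the thyroid hormone receptor β, held 14, of which 13 were single-copy. All 3 lie on chromosome 14 and RefSeq curated transcripts place every one of these peaks in the same gene. Median −log10 q was 3.49 and 3.57 in Ptprg, 2.88 and 3.57 in Fhit and 4.81 and 7.67 in Thrb. Among these weak peaks of Ptprg, 4 reached a −log10 q of 10 in both replicates. The strongest of its single-copy peaks, chr14:12143654-12145096 in intron 9, had 46 and 95 tags and a −log10 q of 34.0 and 94.7, and a peak with 5 copies had 63.4 and 45.5.

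The other genes with many intronic peaks hold them in multi-copy sequence or by their annotation. Gm3383 held 32, Gm3005 15, Gm3173 14 and Gm3002 12, all in the first 10 Mb of chromosome 14, with 0, 2, 1 and 1 single-copy peaks, and C130026I21Rik on chromosome 1 held 20 with 1 single-copy peak. RefSeq places 1, 2, 1, 0 and 0 of these peaks, in that order, in the same gene. The 14 peaks counted for Fgfr2, the fibroblast growth factor receptor 2, lie along a GENCODE transcript that reaches 2961 kb, while the RefSeq gene spans 104 kb and holds 0 of them. Lrp1b, a lipoprotein receptor gene of 2058 kb, held 14, of which 3 were single-copy. Of all intronic peaks, 89.5% lie in the same gene by RefSeq.

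The 10 strongest peaks that were single-copy by exact match in the assembly held from 52 to 277 tags in replicate 1. In replicate 2 they held from 75 to 325. They were E030030I06Rik with 277 and 310 tags, Cmss1 with 229 and 325, Kctd16, a subunit of GABA-B receptors, with 222 and 236, and Mdga2, a synaptic adhesion molecule, with 192 and 198. Nedd4l, a ubiquitin ligase that controls sodium channels, had 107 and 111 tags, Actr3b, an actin-related protein, 80 and 115, Asic4, of the acid-sensing ion channel family, 79 and 75, D5Ertd579e 74 and 76, Fgfr2 52 and 108, and the deubiquitinase Mindy2 60 and 78. The median for intronic peaks was 16 and 19, so these stand far above the bulk. Their paired summits were 0 to 38 bp apart. In the Nedd4l window, 35.9% of the 20 bp stretches also occur in the mitochondrial genome, and no other intronic peak had any such stretch. In Actr3b, Asic4 and Mindy2 the whole window was marked as repeat, and in Mdga2 77% of it. At its replicate 2 summit D5Ertd579e had 4 copies. Much of the Fgfr2 window nearly matches the window of a peak in Gphn, whose summit had 4 copies. The Cmss1 window was 70.5% G or C, and none of it was marked as repeat. The only ribosomal RNA sequence searched for was 18S, which shared a stretch with 0 intronic peaks. Whether other ribosomal sequence lies in these windows was not tested. Single-copy by exact match thus does not mean unique sequence here. The Fgfr2 peak, chr7:130834424-130834598, lies outside the RefSeq gene. The part of these features in the values was not tested.

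Gene lists were described by how many genes held an intronic peak, beside the share over all 12425 genes with eligible intron, which was 15%, and 7.29% for a single-copy peak. Since long genes offer more intron, the peaks per Mb are given too, with 5.86 over all genes, or 2.21 for single-copy peaks, where a peak counts once in each gene that holds it. Of 10 gonadotrope transcription factors with eligible intron, 3 held a peak and 2 a single-copy one, at 5.81 and 2.32 peaks per Mb, close to all genes. Tcf7l2, a WNT effector, had a single-copy peak with −log10 q of 9.36 and 27.2, and the Nr5a1 peak is given above. Esr1, the estrogen receptor α, held 2 multi-copy peaks, the stronger with 6.97 and 6.93.

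Of 51 genes of GnRH receptor signaling, 14 held a peak and 7 a single-copy one, at 5.27 and 2.93 peaks per Mb. Gng2, a G protein γ subunit on chromosome 14, held 7 peaks, 5 of them single-copy, the strongest with −log10 q of 16.6 and 46.7. Adcy8, an adenylyl cyclase, held a single-copy peak with 10.2 and 23.0. Prkce, protein kinase Cε, held 4 peaks, of which 3 were single-copy; the strongest, with 40.1 and 71.1, had 9 copies. Sos1, a gene that links receptors to RAS, held 2 multi-copy peaks, the stronger with 85.9 and 121 and 2 copies.

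Voltage-gated ion channel genes, which shape the firing and calcium entry that drive hormone release, held peaks in 20 of 37 genes, and single-copy ones in 13, at 5.87 and 3.11 per Mb. Kcnma1, the BK potassium channel gene on chromosome 14, held 8 peaks, 7 of them single-copy, the strongest with −log10 q of 13.8 and 43.1. Kcnb2, a delayed rectifier, held a single-copy peak with 23.9 and 39.5, and Kcnq3, an M-current subunit, one with 30.6 and 41.9. The strongest peak of Kcnq5, of the same family, had 54.0 and 69.8 with 5 copies. Genes of regulated exocytosis held peaks in 9 of 34, and single-copy ones in 4, at 4.60 and 1.38 per Mb. Syt9, a calcium sensor, had a single-copy peak with 12.9 and 31.5. Cadps, a priming factor for dense-core vesicles on chromosome 14, held 4 peaks, 3 of them single-copy. The 5 peaks of Pcsk2, a prohormone convertase, were all multi-copy, the strongest with 7.74 and 13.4, and that of Syt14 had 9.36 and 10.0 with 7 copies.

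Clock genes held peaks in 5 of 17 genes, all 5 with a single-copy one, at 6.40 and 5.60 per Mb. Npas2, a partner of BMAL1, held 3 single-copy peaks, the strongest with −log10 q of 13.8 and 24.0. The BMAL1 gene Arntl had 1 with 7.74 and 16.1, and the nuclear receptor genes Rora and Rorb had 1 each with 19.7 and 15.2 and with 8.54 and 14.3. Of these 17 genes, 9 had a promoter peak in both replicates, or 52.9%, against 30.5% of all genes with eligible intron. The share was 58.6% among the GnRH-induced genes described below, so it was not particular to clock genes.

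Genes of activin, BMP and Smad signaling, which drives Fshb, held peaks in 4 of 31, and single-copy ones in 3, at 3.54 and 1.77 per Mb. Smad2, a signal transducer of activin, had a single-copy peak with 4.13 and 15.2, and Bmpr1b, a BMP receptor gene, had one with 8.54 and 10.0 beside a stronger one with 2096 copies. The Smad5 peak, with 2.88 and 2.99, had 888 copies. Tgfbr3, betaglycan, had one with 1.79 and 4.84. Long neuronal adhesion genes held a peak in 40 of 43, and a single-copy one in 21, but at 5.09 and 1.31 per Mb. Ptprt held 12, 8 of them single-copy, and the strongest single-copy peaks were in Cntnap5b, with 35.2 and 76.5, Cntn5, with 21.7 and 45.5, and Magi2, with 15.7 and 50.4. Of 20 genes of liver and blood cells, 2 held a peak, Runx1 and Vav3, each with 1 single-copy peak, at 6.55 and 1.87 per Mb, and of 10 genes of other pituitary lineages 0 did, in 0.235 Mb of eligible intron. Of 29 genes induced by GnRH in the study's RNA-seq list that have eligible intron, 2 held a peak, Gm3558 and Gm3248, with 5 multi-copy peaks in all, or 13.8 per Mb, both on chromosome 14; that list was chosen by the study on other samples of the same line.

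Motifs were counted within 100 bp of the summit on both strands, by exact match, and each motif was counted on its own where matches overlap. They were AP-1 (TGACTCA or TGAGTCA), CRE (TGACGTCA), CTCF, SF1 (CAAGGTCA), GATA (these 4 letters with A or T before and A or G after), PITX (TAATCC), LHX (TAATTA), EGR (GCGTGGGCG), SP1 (GGGGCGGGG), the SMAD palindrome (GTCTAGAC), the E-boxes CAGCTG and CAGATG, forkhead (TGTTTAC), RFX (GTTGCCAT), the POU octamer (ATGCAAAT), the Six-type sequence (TCAGGTTTC), ETS (CCGGAAGT), TEAD (CATTCCA) and NFY (CCAATCA). The single-copy peaks are compared with single-copy intron positions and with windows 2 kb to each side of the peaks that overlap no peak. Neither set was matched to the peaks for base composition, whose part in the shares was not tested.

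SF1 had a match in 117 of 1363 single-copy windows, or 8.58%, against 1.22% of the intron positions and 1.06% of the flanks. CTCF, the insulator protein, had a match in 32 windows, or 2.35%, against 0.0837% and 0.0394%. AP-1 had a match in 88, or 6.46%, against 3.44% and 2.88%, the CAGCTG E-box in 15.2%, against 7.76% and 8.20%, and RFX in 1.54%, against 0.588% and 0.552%. PITX was at 10.4%, against 8.06% and 7.97%. LHX was lower in the peaks, at 4.18% against 7.63% and 5.72%. It was not alone in this: the POU octamer was at 0.734%, against 1.45% and 1.14%. Forkhead was at 2.57%, against 3.24% and 3.39%, and TEAD at 2.57%, against 3.34% and 3.19%. The Six-type sequence was higher, at 0.880%, or 12 windows, against 0.216% and 0.276%. EGR was at 0.147%, or 2 windows, against 0.00872% and 0, and the SMAD palindrome at 0.293%, or 4 windows, against 0.187% and 0.0394%, with few windows in each set. The replicate 2 summits of the same peaks gave 10.6% for SF1, 2.42% for CTCF, 6.53% for AP-1 and 3.82% for LHX. Without chromosome 14 the shares were 8.90% for SF1, 2.25% for CTCF and 6.57% for AP-1.

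Set beside other reproducible single-copy peaks, the intronic ones were nearer to the intergenic ones than to promoters. SF1 was at 5.61% in intergenic and 1.34% in promoter windows, AP-1 at 6.03% and 2.80%, and CTCF at 1.86% and 0.728%. ETS and SP1, frequent at promoters with 7.35% and 10.9%, were at 0.147% and 0.440% in the intronic windows. In multi-copy intronic windows SF1 was at 0.312%, AP-1 at 1.16% and CTCF at 0.0890%. Within 250 bp of single-copy intronic summits, SF1 matches numbered 68, 58, 55, 17 and 22 in successive steps of 50 bp outward, and CTCF matches 18, 14, 1, 4 and 3. Single-copy peaks with an AP-1 match had a −log10 q of at least 10 in both replicates in 23.9%, and those without in 14.4%. AP-1 was not alone in this, with 25.7% and 14.7% for TEAD and, over only 21 peaks with a match, 33.3% and 14.7% for RFX. For SF1 the shares were near each other, at 15.4% and 14.9%. For CTCF it was 9.38% and 15.1%, and for PITX 11.3% and 15.4%. No test was run on these shares.

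The strongest single-copy peak with an SF1 match, the strongest with an RFX match and the strongest with a CTCF match are shown, as above, with those matches in capitals, along with the AP-1 match of the first and the PITX match of the second. They lie in Stau2, an RNA-binding protein gene, in Ptprg and in Ldb3, a gene of a muscle Z-disc protein.
Stau2, chr1:16268938-16269137: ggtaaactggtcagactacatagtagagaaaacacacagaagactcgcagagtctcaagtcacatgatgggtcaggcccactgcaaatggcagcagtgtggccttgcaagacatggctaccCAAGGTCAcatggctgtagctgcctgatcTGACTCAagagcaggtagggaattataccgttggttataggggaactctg
Ptprg, chr14:12144269-12144468: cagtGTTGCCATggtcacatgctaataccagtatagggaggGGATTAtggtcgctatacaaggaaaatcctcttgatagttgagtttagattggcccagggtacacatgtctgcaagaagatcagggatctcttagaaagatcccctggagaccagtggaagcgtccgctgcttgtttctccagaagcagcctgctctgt
Ldb3, chr14:34549397-34549596: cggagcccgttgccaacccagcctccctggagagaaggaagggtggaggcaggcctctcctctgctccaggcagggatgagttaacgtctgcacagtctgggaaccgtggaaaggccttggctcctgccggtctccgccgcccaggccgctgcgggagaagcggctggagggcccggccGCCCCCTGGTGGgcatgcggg
The Stau2 peak had 35 and 86 tags and a −log10 q of 21.7 and 82.0, and its window holds both SF1 and AP-1. Its summits lay 157 bp apart in the replicates, so these tags were counted at different bases. The Ptprg peak is the strong one described above. The Ldb3 peak had 25 and 49 tags and a −log10 q of 12.0 and 34.9. The tags of these 3 did not pass the test between replicates (exact binomial test, adjusted p = 0.243, 0.611 and 1), but those of Stau2 did when scaled by the backgrounds (exact binomial test, adjusted p = 0.0266).

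**Figure D5:**
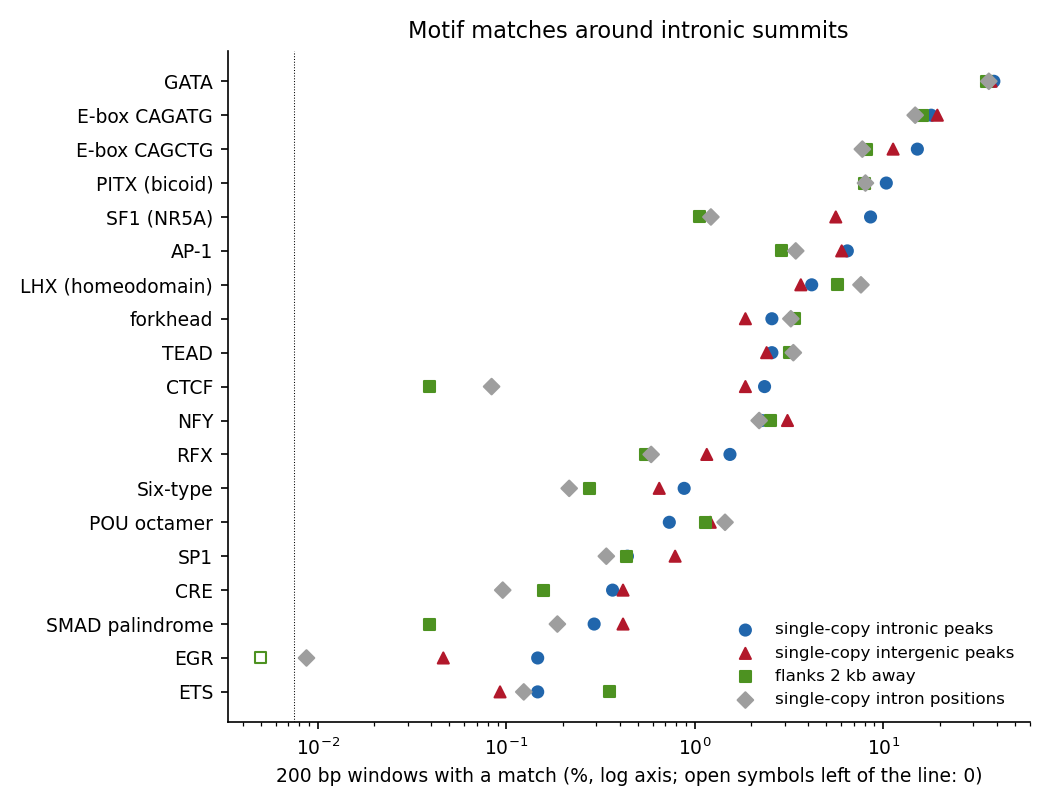
Share of 200 bp windows with a match (x, percent, log axis) for the 19 motifs (y), in single-copy intronic peaks (blue), single-copy intergenic peaks (red), flanks of the intronic peaks (green) and single-copy intron positions (gray), an open symbol left of the dotted line standing for 0. SF1 at 8.58% and CTCF at 2.35% lie well to the right of flanks and intron positions, and LHX at 4.18% lies to their left.

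At the limits of the rule, 81 peaks had summits more than 190 and up to 200 bp apart, with a median −log10 q of 3.49 and 4.84, and 72 others just outside, up to 210 bp, had 3.81 and 4.84. The 79 peaks up to 5500 bp from a TSS had 4.13 and 6.93, and the 96 reproducible peaks at more than 4500 and up to 5000 bp that met the other conditions had 4.80 and 7.67.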

How the data were processed

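ATAC-seq was performed on 2 replicate samples of 1 condition. Per the labels and methods, bowtie2 was used by the authors for mapping to GRCm38, duplicates were removed, and MACS2 was run on either replicate alone with the option "-g dm" (tool versions are not given in the sources used here). That option sets the genome size, on which the background, fold, p and q may depend. Its effect on them was not tested. Beside its position, each deposited peak has a score, its fold over background (a ratio) and the −log10 of its p-value and q-value. The deposited score was 10 times −log10 q, cut to a whole number, in 100% of peaks and was not used further.

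Locations came from GENCODE vM21 (RefSeq curated transcripts as a check) and sequences from the RefSeq copy of GRCm38. Tags were solved from fold and p, and −log10 p computed back from them differed by at most 2.3e-05. Eligible intron is non-exonic sequence of protein-coding transcripts more than 5 kb from every TSS; a host gene is that of the longest transcript. Tests used scipy 1.17.1 and copies were counted with numba 0.67.0, under Python 3.11.15 with numpy 2.4.6. For tables and figures, pandas 2.3.3 and matplotlib 3.10.9 served. The location rule, summit pairing, copy counts, a motif search, solved tags and the binomial test were tried on simulated data, and the other measures were not.

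The intronic peaks, gene lists and motifs were chosen with earlier results of these data known. Named were the 10 strongest single-copy peaks, the 10 genes with most peaks, up to 4 genes of each list by strength, the peaks at the limits of the rule and a set of gonadotrope genes, of which 1 is not reported here. Chl1, Klra2, Acsl6, Stau2, Ldb3, the strong Ptprg peak, chromosome 14 and its stretches, and the list of GnRH-induced genes were chosen after their values were seen. Alternatives concerned the summit distance, the TSS distance, a threshold on q, the annotation, the replicate that gives positions, leaving out a replicate, copy and motif windows and the scaling of tags. Groups of samples were not compared, since there was 1 condition. Any interval given for tags reflects counting error alone.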

Additional observations from a re-analysis of the deposited data

How the results depend on the processing

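The number of intronic peaks stayed within 1.5 times 3609 when summits had to lie within 100 or 500 bp, with either other TSS distance, with either other annotation, with positions from replicate 2 and without chromosome 14, an alternative chosen after seeing the data. It was 1342 with −log10 q of at least 5 in both replicates, and 9293 and 10259 when 1 replicate was left out and the location rule alone applied. No paired analysis was possible because there is 1 group.

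Their share of reproducible peaks, 15.7%, was 18.8% over 2 kb and 12.1% over 10 kb from every TSS, 13.7% with −log10 q of at least 5, 17.1% with GENCODE basic and 18.2% with RefSeq curated transcripts, and 17.4% and 17.6% with 1 replicate left out. The mean of the median −log10 q was 10.1 with the threshold on q, 6.62 for single-copy peaks, and 3.49 and 4.19 with 1 replicate left out. The single-copy share, 37.8%, was 39.5% and 34.5% with summits within 100 and 500 bp, 43.9% with the threshold on q, 40.0% with GENCODE basic, 41.4% with RefSeq, 53.3% and 70.7% with windows of 100 and 200 bp, and 35.6% and 40.9% with 1 replicate left out. The share with −log10 q of at least 10 in both replicates was 14.4% and 10.5% with summits within 100 and 500 bp, 32.6% with the threshold on q and 15% for single-copy peaks. The intronic peaks whose tags differed numbered 1 with summits within 100 bp and over 10 kb from every TSS, 6 with RefSeq and 8 when tags were scaled by the background, a ratio of 1.16 in place of 1.31, of which 7 were higher in replicate 2 and Chl1 was not among them. The causes were not tested, except that a threshold on q raises q by its construction.

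One limit is depth: with a median of 16 and 19 tags, no peak means none detectable at this depth, and reads of multi-copy summits may belong to another copy. So may reads of single-copy summits that have near copies or copies absent from the assembly.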
